A study of Homo sapiens with 9 samples.

Results

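A stretch of 20 Mb on the long arm of human chromosome 14, from 60 to 80 Mb in hg19, held 504 of the 19861 p300 peaks deposited for this series. The members were chosen by position, as every peak of the 5 lists whose midpoint lies between these borders. The stretch itself was selected on the high number of peaks that the same lists place there, so its number of peaks and its density are given as a description with no test. The members nearest the borders were a peak of treated list 2 at chr14:60036635-60037021 and a peak of untreated list 1 at chr14:79780760-79780970. Just outside lay peaks of treated list 1 at chr14:59952364-59952615 and chr14:80657094-80657286. HIF1A lies near 62.2 Mb and FOS near 75.7 Mb. Both positions are known here only to the nearest 0.1 Mb, so every distance from a gene is uncertain by about 50 kb.

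The peaks come from chromatin immunoprecipitation and Ion Proton sequencing of p300 in the human prostate cancer line PC3. The treated group was 3 libraries of PC3 cells given 30 µM MnTE-2-PyP (written µm and called T2E in the labels) for 24 h before irradiation. This is a manganese porphyrin that mimics superoxide dismutase. The untreated group was 2 libraries of the same line without the drug. All of these cells received 20 Gy of radiation and were fixed 1 h later, so the comparison is between irradiated cells with and without the drug, and unirradiated cells were not analysed here. The series' design text calls the libraries biological replicates of a single line. The 4 input libraries were not analysed here, and the lists give no read counts, so the depth behind a peak is unknown.

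The histone acetyltransferase p300 is a coactivator with no DNA-binding specificity of its own. It is brought to promoters and enhancers by transcription factors and acetylates histones there. HIF1A encodes the oxygen-regulated subunit of hypoxia-inducible factor 1, whose C-terminal activation domain binds p300 when oxygen is low. FOS encodes an immediate early protein that pairs with JUN proteins in the factor AP-1, and its own promoter is a textbook target of CREB, another factor that recruits p300 and its relative CBP.

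The promoters of the 2 genes that anchor the stretch are shown because the question at each gene is whether p300 peaks lie near it. They are RefSeq sequences of GRCh38.p14, the 250 bases before the annotated start on the plus strand. They are a different build from the peaks, so no peak was placed on them. Capitals mark the letters of the motifs searched on both strands, which were TGACG (the core of a CREB site), TGANTCA (AP-1), ACGTG and GCGTG (cores of hypoxia response elements) and TATAAA (the TATA box).

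HIF1A, chr14:61695263-61695512: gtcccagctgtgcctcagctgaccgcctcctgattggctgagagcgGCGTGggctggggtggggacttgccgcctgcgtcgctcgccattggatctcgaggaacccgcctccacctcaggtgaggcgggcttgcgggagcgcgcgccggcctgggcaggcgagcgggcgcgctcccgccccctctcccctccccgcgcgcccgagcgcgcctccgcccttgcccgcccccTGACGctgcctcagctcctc

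FOS, chr14:75278578-75278827: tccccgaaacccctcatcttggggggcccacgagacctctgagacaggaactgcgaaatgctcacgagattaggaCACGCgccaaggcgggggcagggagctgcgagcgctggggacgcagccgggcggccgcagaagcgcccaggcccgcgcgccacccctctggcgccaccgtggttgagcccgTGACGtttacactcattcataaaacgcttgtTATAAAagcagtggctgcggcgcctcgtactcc

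In the FOS window, counting back from the start, TGACG lay at -64 to -60 and TATAAA at -33 to -28, and GCGTG was read on the minus strand at -175 to -171. The HIF1A window held TGACG at -20 to -16 and GCGTG at -204 to -200, and the letters TATAAA do not occur in it. Neither window holds TGANTCA or ACGTG. Among 35116 RefSeq promoter windows of the same length, 21.2% hold TGACG, 32.2% GCGTG, 10.7% TATAAA, 18.5% ACGTG and 6.57% TGANTCA, on either strand and without regard to overlap between motifs. GC content was 75.6% in the HIF1A window and 64.8% in the FOS window, against a median of 58% over all windows. HIF1A has 2 annotated starts in the table, and the first along the chromosome was used.

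By RefSeq gene order, 112 protein-coding genes lie between HIF1A and FOS. HIF1A is flanked by TMEM30B and SNAPC1, and FOS by TMED10 and JDP2, which like the next gene BATF encodes an AP-1 family protein. Among genes picked by hand as landmarks, MNAT1 precedes HIF1A in this order. ESR2, GPX2, MAX, ZFYVE26, RAD51B, PGF and MLH3 lie between HIF1A and FOS. RAD51B and MLH3 encode proteins of DNA repair, and GPX2 encodes a glutathione peroxidase. No hg19 annotation was used, so peaks could not be assigned to any of them.

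The treated lists had 225, 137 and 16 peaks in the stretch, against 80 and 46 in the untreated lists. These were 4.57%, 1.36% and 3.03% of all peaks in treated lists 1, 2 and 3, against 3.46% and 2.26% in untreated lists 1 and 2. The 95% Wilson intervals, which cover counting error only, were 4.02 to 5.19%, 1.15 to 1.61% and 1.87 to 4.87% in the treated lists and 2.79 to 4.28% and 1.70 to 3.00% in the untreated lists. The highest and the lowest share were both in treated lists, so the groups overlapped fully. Every list was above the 0.668% of the genome span that the stretch makes up, by 6.85, 2.04 and 4.54 times in the treated and 5.18 and 3.38 times in the untreated lists.

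The share in the stretch averaged 2.99% ± 1.61 in treated lists (SD, n = 3) and 2.86% ± 0.850 in untreated lists (SD, n = 2). The difference of 0.130 points was smaller than the spread within either group. It is given with no test, since peak numbers chose the stretch. The direction changed to -0.661 points without treated list 1 and to -0.471 points without untreated list 2. The peak names of treated list 1 and untreated list 1 carry one identifier, and those of treated list 3 and untreated list 2 another. The names do not say what this identifier stands for, and it is used here only to pair lists. Within these pairs the treated list had the higher share, by 1.11 points in the first pair and 0.774 points in the second. Treated list 2 has no partner, and it was at once the longest list and the one with the lowest share. No test is possible within a pair of 2 lists.

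**Figure D1:**
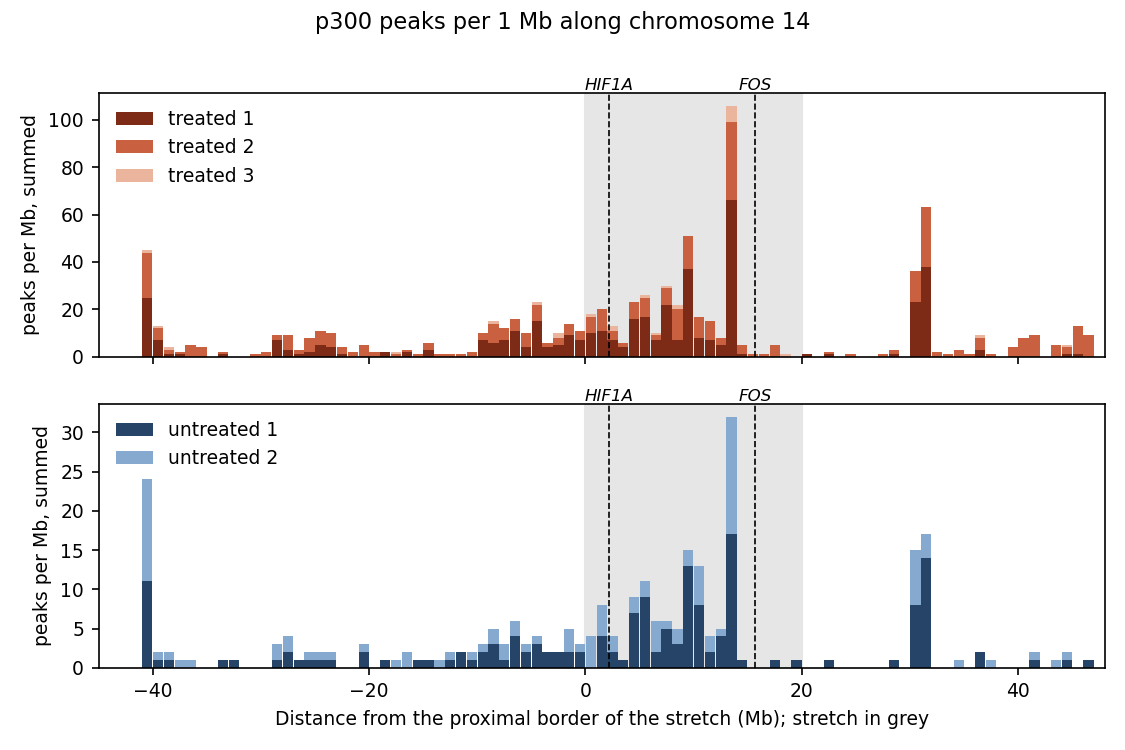
Peaks per 1 Mb window along chromosome 14, stacked by list, for the treated lists (top) and the untreated lists (bottom), with the stretch in grey and the positions of HIF1A and FOS as dashed lines. The x axis is the distance in Mb from the 60 Mb border. In both groups the highest window is the one 13 to 14 Mb from the border, and FOS lies in the sparse part after it.

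The peaks were not spread evenly over the stretch. The first 14 Mb held 488 of the 504 members (96.8%), at 34.9 per Mb over all lists, and the last 6 Mb held 16, at 2.67 per Mb. The treated lists had 224, 126 and 15 members before 74 Mb and 1, 11 and 1 after it. The untreated lists had 77 and 46 before it and 3 and 0 after it. The step at 74 Mb was thus present in all 5 lists, and HIF1A lies on its dense side and FOS on its sparse side. The border was not planned and directly follows the densest window of these same lists. Their agreement is therefore a description with no test. On the proximal side the density was 16.3 per Mb from 50 to 60 Mb. On the distal side it stayed low up to 90 Mb, with 26 peaks in the 16 Mb from 74 to 90 Mb, and then 131 peaks lay between 90 and 92 Mb. Treated list 3 had none of those 131 peaks.

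Of the 11 members of treated list 2 beyond 74 Mb, 8 were 291 bp wide, the narrowest width found anywhere in that list. Only 1 region there was held by more than 1 list. It lay at chr14:74709016-74709505 in treated lists 1 and 2, at score percentiles of 93.9 and 97.9 within their lists. A score percentile is the rank of the authors' peak score among all peaks of the same list, with 100 at the top, and was used because the files do not name the scale of the score.

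**Figure D2:**
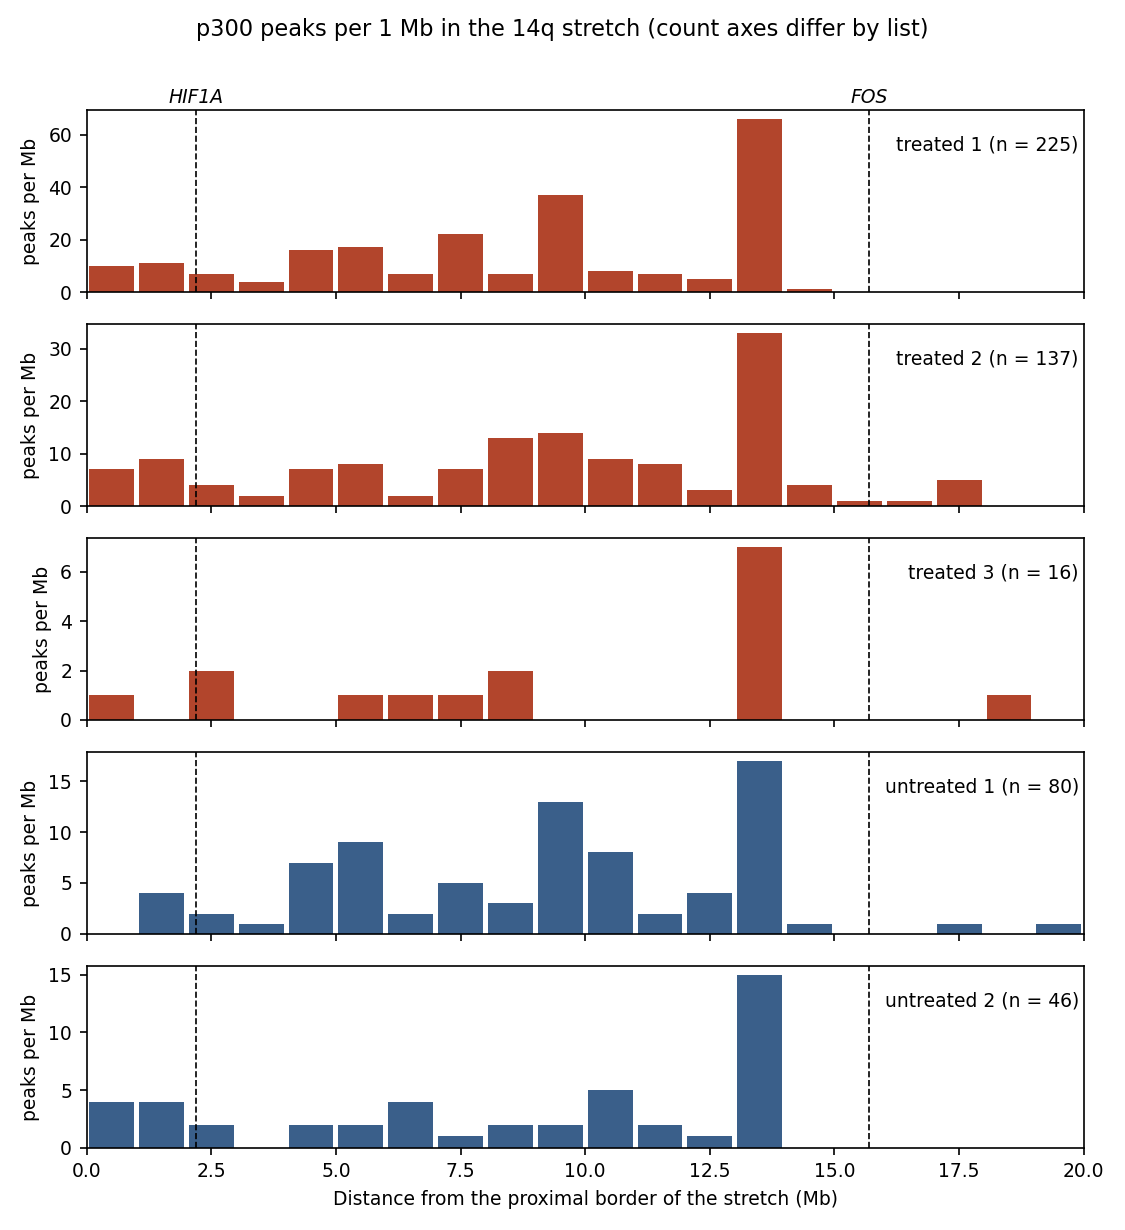
Peaks per 1 Mb window of the stretch in each list, treated lists above untreated lists, with the distance in Mb from the 60 Mb border on the x axis and count axes that differ between lists. The window 13 Mb from the border is the highest in all 5 lists, with 66, 33 and 7 peaks in the treated and 17 and 15 in the untreated lists.

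The densest window, from 73 to 74 Mb, held 138 members. It was the highest window of the stretch in each of the 5 lists, with 66, 33 and 7 peaks in treated lists 1, 2 and 3 and 17 and 15 in untreated lists 1 and 2. This was 29.3%, 24.1% and 43.8% of the members of the treated lists, against 21.3% and 32.6% of those of the untreated lists, and the groups overlapped. The next window by total was 69 to 70 Mb with 66 peaks. There the treated lists held 37, 14 and 0 and the untreated lists 13 and 2. The third, 65 to 66 Mb, held 37 peaks, with 17, 8 and 1 in the treated and 9 and 2 in the untreated lists. The sparsest windows, at 75, 76, 78 and 79 Mb, held 1 peak each, and the first of these is the window of FOS.

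Windows that separated the groups were rare. Over all 1 Mb windows of the series with at least 5 peaks, every treated share lay above every untreated share in 2.45% and below it in 9.91%. In the stretch 16 windows had at least 5 peaks, and 0 of them were higher in all treated lists and 1 lower, at 70 to 71 Mb. That window held 8, 9 and 0 peaks in treated lists 1, 2 and 3 and 8 and 5 in untreated lists 1 and 2, and 1 of 16 is near the background. Treated list 3, with 528 peaks in all, had none in 12 of the 20 windows of the stretch. A window without its peaks cannot be higher in all treated lists. This list therefore limits the counts and the background alike. Without treated list 3 the counts in the stretch were again 0 and 1. Across the 20 windows most lists were high and low in the same windows. Spearman's rho was 0.63 to 0.83 for the 6 pairs of lists without treated list 3 and 0.18 to 0.41 for the 4 pairs with its 16 peaks. These are descriptions, since the windows of a list share its library.

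**Figure D3:**
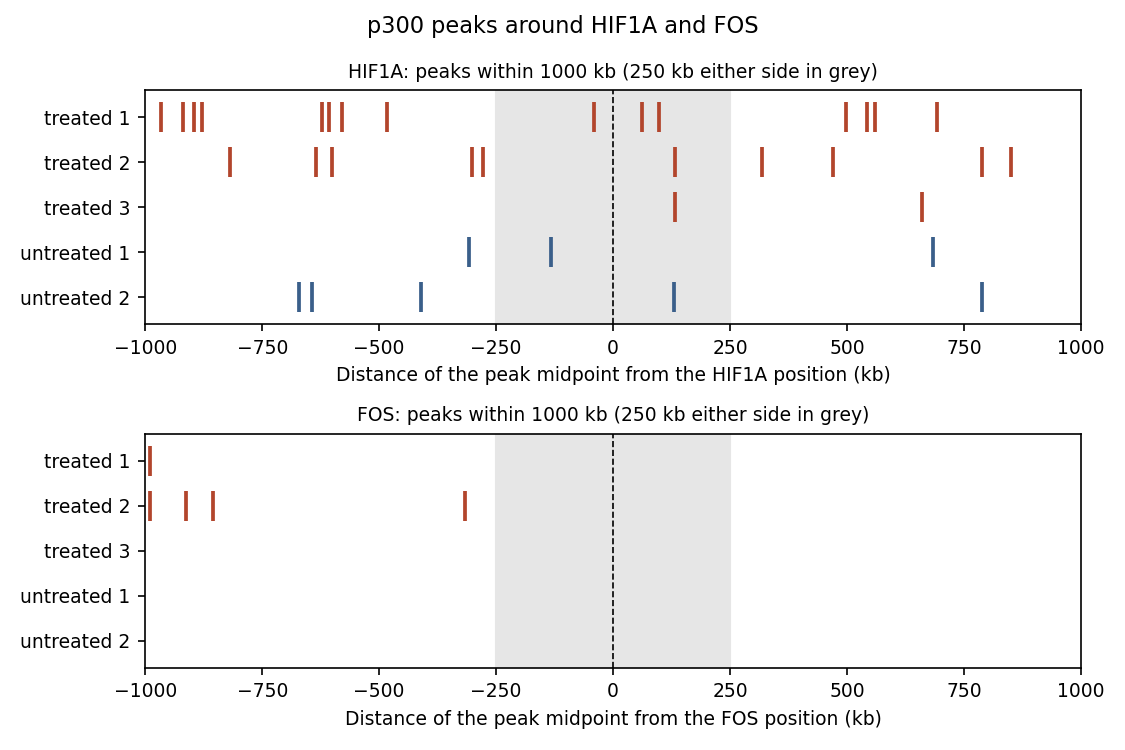
Midpoints of p300 peaks within 1000 kb of the HIF1A position (top) and of the FOS position (bottom), 1 row per list with treated lists above untreated lists, and 250 kb on either side in grey. The HIF1A neighbourhood holds 7 peaks in the grey band, 1 to 3 per list, and the FOS neighbourhood holds 0.

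Within 250 kb of HIF1A there were 7 peaks in 5 regions, with 3, 1 and 1 in treated lists 1, 2 and 3 and 1 and 1 in the untreated lists. At the mean density of the stretch 12.6 peaks would fall in a window of this width, and 18 of the 40 windows of 500 kb that make up the stretch held 7 peaks or fewer. All windows of the sparse last 6 Mb, which held 16 peaks together, are among these 18. The first 14 Mb, where HIF1A lies, held 34.9 peaks per Mb, so 12.6 is low for that part. The recurrent region lay at chr14:62331126-62331818, about 131 kb distal to the HIF1A position, and was held by treated lists 2 and 3 and untreated list 2. Its peaks were 523 and 311 bp wide in the treated lists and 407 bp in the untreated list. They had score percentiles of 67.9 and 23.8 in the treated lists and 47.8 in the untreated list.

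The other 4 regions near HIF1A were each in 1 list. Treated list 1 had 3 of these. One was at chr14:62160181-62160414, 39.7 kb proximal to the position used for HIF1A and at score percentile 65.7. That distance is within the 50 kb or so by which the position is uncertain, so this peak may lie much closer to the gene. A second was at chr14:62262740-62262969, at percentile 50.9, and the last at chr14:62298764-62299091, at percentile 3.10 near the bottom of its list. Untreated list 1 had a peak at chr14:62067689-62067887, on the proximal side, at percentile 47.9. No region within 250 kb of HIF1A was in all treated lists, in both untreated lists, or in all 5 lists.

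As a share of the members of each list, the HIF1A neighbourhood held 1.33%, 0.730% and 6.25% in the treated and 1.25% and 2.17% in the untreated lists. The difference of 1.06 points rested on the single peak of treated list 3 among its 16 members (exact two-sided permutation p = 1, adjusted p = 1 over 9 tests). With 3 lists against 2 this test cannot go below 0.2. The difference became -0.680 points without that list.

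FOS had no p300 peak within 250 kb in any of the 5 lists. For treated lists 1, 2 and 3 a count of 0 allows up to 1.33%, 2.19% and 18.8% of their members, and for the untreated lists up to 3.75% and 6.52%. These limits take 3 peaks as the most that a count of 0 allows, and treat members as independent draws, which clustered peaks are not. The nearest peak of any list was at chr14:75383516-75383923 in treated list 2, 316.3 kb proximal to the FOS position, and was at score percentile 47.0. The nearest peaks of treated lists 1 and 3 were 991 and 1799 kb away, and those of untreated lists 1 and 2 were 1538 and 1820 kb away. The FOS position falls in the longest peak-free interval of the stretch, 1480 kb between 75383923 and 76863439. Of the 40 windows of 500 kb, with a median of 10 peaks, 4 held none. All of these lie in the last 6 Mb of the stretch, and one of them is the window of FOS itself. At this depth a p300 signal too weak to be called would not appear in the lists, so absence of p300 at FOS is not shown.

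**Figure D4:**
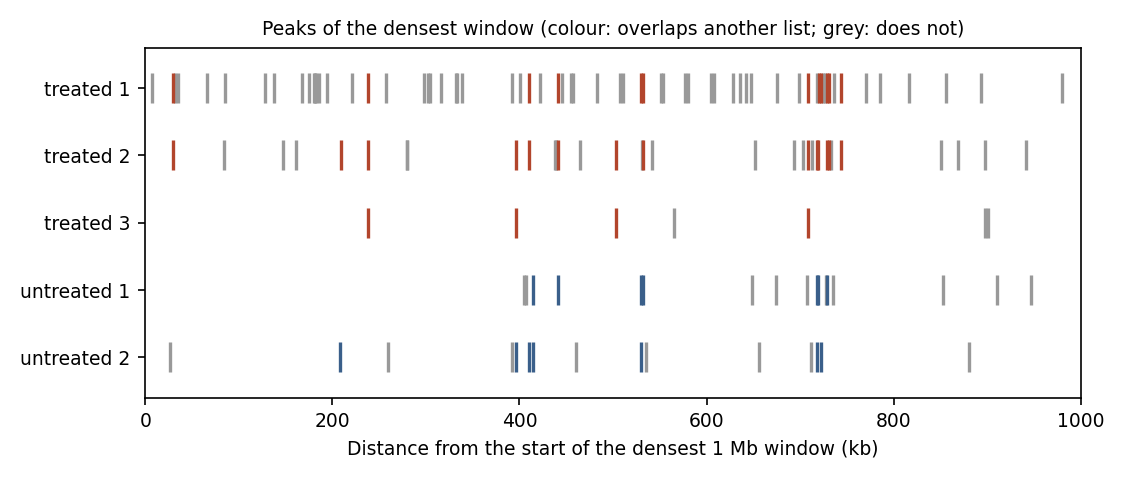
Midpoints of the 138 peaks of the densest window, from 73 to 74 Mb, 1 row per list with treated lists above untreated lists. The x axis is the distance in kb from the start of the window, coloured marks overlap a peak of another list and grey marks do not. Shared peaks run along the window over most of its length, and untreated list 1 has no peak in the first 400 kb.

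Sharing between lists was next described. The members merged into 435 regions, of which 385 (88.5%) were in a single list and 50 (11.5%) in 2 or more lists, against 10.4% of all 16701 regions of the series. A total of 16 regions (3.68%, against 4.23% in the series) were in 3 or more lists. The densest window held 111 of the 435 regions but 17 of the 50 shared ones (34%) and 10 of the 16 found in 3 or more lists (62.5%). These 10 lay between chr14:73238187-73238673 and chr14:73728660-73729425. Within that window the peaks shared by another list made up 18.2%, 42.4% and 57.1% of the treated and 41.2% and 46.7% of the untreated peaks. Among the other members of the stretch they made up 15.1%, 23.1% and 55.6% in the treated and 20.6% and 29.0% in the untreated lists.

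One region of the stretch was in all 5 lists, 0.230% of its regions against 0.886% in the series. It lay at chr14:67334292-67334686. Its score percentiles were 99.0, 99.5 and 83.5 in treated lists 1, 2 and 3 and 95.2 and 71.7 in untreated lists 1 and 2. The peaks there were 235, 369 and 206 bp wide in the treated and 249 and 370 bp in the untreated lists. It was the highest-scoring member of the stretch in all treated lists and in untreated list 1. In untreated list 2 the highest was a peak at chr14:64045929-64046260, at percentile 91.8 and in no other list.

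Regions in every list of one group and no list of the other were few. A region in all treated lists must hold a peak of treated list 3, which had 16 members, so this list limits the count. In all 3 treated and no untreated list there were 2 regions (0.460%, against 0.24% of all regions of the series). The first lay at chr14:73238187-73238673, with score percentiles of 64.2, 93.9 and 32.6 in treated lists 1, 2 and 3. The second lay at chr14:73708313-73709162, with percentiles of 0.863, 85.0 and 37.7, so it was among the weakest peaks of treated list 1. A wider set, in at least 2 treated lists but in neither untreated one, held 19 regions (4.37% of those in the stretch, and 2.93% in the series). Most of them, 14, were held by treated lists 1 and 2, the longest lists.

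In both untreated and no treated list there were also 2 regions (0.460%, against 0.186% in the series). They lay at chr14:68810607-68811092, with percentiles of 39.4 and 5.37 in untreated lists 1 and 2, and at chr14:73414011-73414553, with 58.2 and 22.8. With 2 regions in each direction, neither count can be read as more than a pair of sites. A single region cannot reach significance with 3 lists against 2, and none was tested. Leaving out a list loosens the definitions. The treated-only regions became 16 without treated list 3 and 4 without treated list 1. Those held only by untreated lists became 32 without untreated list 1 and 62 without untreated list 2.

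The percentage of members held by any other list was 16.0%, 27.7% and 56.3% in treated lists 1, 2 and 3 and 25% and 34.8% in untreated lists 1 and 2. The treated lists held both the lowest and the highest value. The difference between group means was 3.44 points (33.3% ± 20.7, n = 3, against 29.9% ± 6.92, n = 2, SD; exact two-sided permutation p = 1, adjusted p = 1). It was -8.97 points without treated list 3, the shortest list.

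Peak widths followed the list more than the treatment. Median width in the stretch was 243, 363 and 233 bp in treated lists 1, 2 and 3 and 244 and 388 bp in untreated lists 1 and 2. The medians fell into a narrow set of 233 to 244 bp and a wide set of 363 to 388 bp, each with treated and untreated lists. The narrowest peak was 193, 291 and 200 bp in the treated and 199 and 332 bp in the untreated lists, in the same grouping. The group difference was -36.25 bp (279.5 ± 72.5 bp, n = 3, against 315.8 ± 101.5 bp, n = 2, SD; exact two-sided permutation p = 0.4, adjusted p = 0.9). It became 35.5 bp without untreated list 2, and within the pairs by identifier the treated list differed by -1 bp in the first pair and by -155 bp in the second.

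The median score percentile of the members was 41.3, 60.2 and 35.1 in treated lists 1, 2 and 3 and 36.3 and 38.5 in untreated lists 1 and 2. Only treated list 2 lay above the middle of its list. The group means were 45.6 ± 13.1 (SD, n = 3) and 37.4 ± 1.54 (SD, n = 2), a difference of 8.19 points (exact two-sided permutation p = 0.6, adjusted p = 1). Without treated list 2 the difference was 0.857 points. In the top 10% of their own list by score were 4, 14 and 0 of the treated members and 1 and 2 of the untreated members. As shares of the members these were 1.78%, 10.2% and 0% in the treated and 1.25% and 4.35% in the untreated lists. The dense stretch thus held many peaks of low to middling rank and few strong ones in 4 of the 5 lists.

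**Figure D5:**
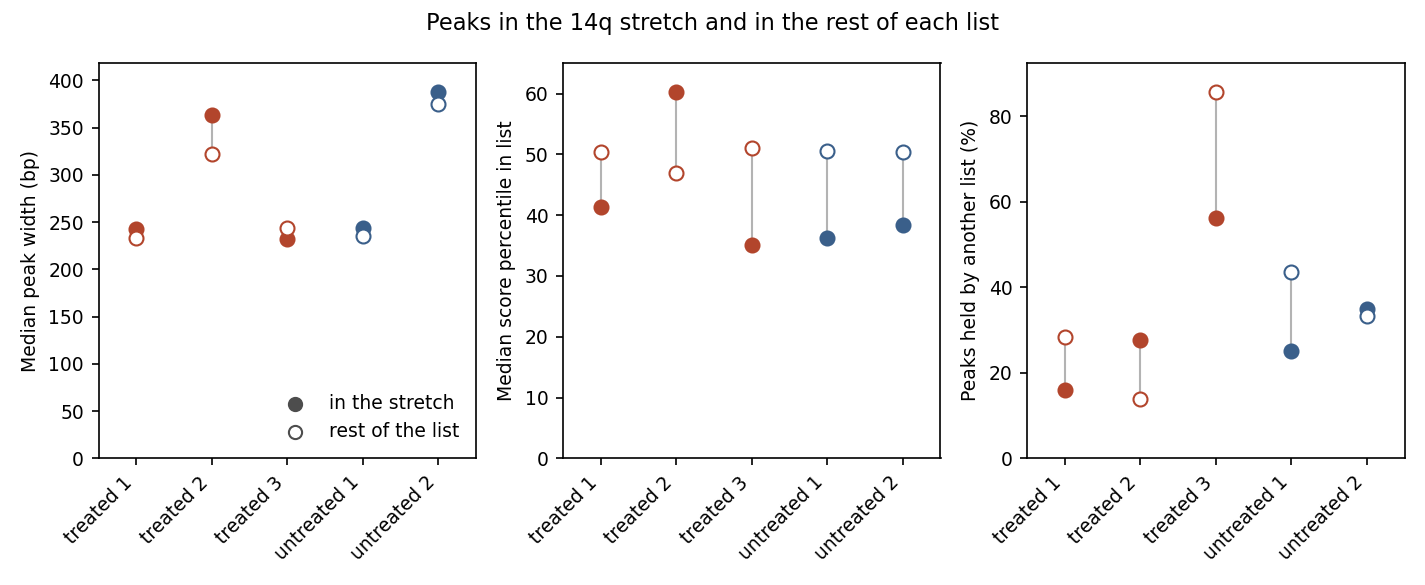
Median peak width (bp), median score percentile and percentage of peaks held by another list, for the members of the stretch (filled) and for the rest of the same list (open), with treated lists in red on the left and untreated lists in blue on the right. Score percentiles of the members are below the rest in 4 lists and above it in treated list 2.

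Each list was then set against its own remaining peaks. Width, score rank and sharing did not choose the stretch. Sharing, however, depends on how many peaks the other lists place there, and peak numbers did choose it. Whether width and rank depend on peak numbers was not tested. Members ranked lower than the rest of their list in 4 of 5 lists. Median score percentiles inside and outside were 41.3 and 50.3 in treated list 1, 35.1 and 51.0 in treated list 3, 36.3 and 50.6 in untreated list 1 and 38.5 and 50.3 in untreated list 2. Treated list 2 went the other way, with 60.2 inside and 47.0 outside. The mean difference was -7.59 points ± 11.9 (SD, n = 5; exact two-sided sign-flip permutation p = 0.25, adjusted p = 0.9), where this test cannot go below 0.0625. Without treated list 2 it was -12.8 points, lower in 4 of 4 lists. Set against the rest of chromosome 14 in place of the rest of the list, the mean difference was -1.37 points (exact two-sided sign-flip permutation p = 0.688, not adjusted).

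Members were wider than the rest of their list in 4 of 5 lists, by 12.2 bp ± 18.8 on average (SD, n = 5; exact two-sided sign-flip permutation p = 0.25, adjusted p = 0.9). The medians inside and outside were 243 and 233 bp, 363 and 322 bp and 233 and 244 bp in treated lists 1, 2 and 3, and 244 and 235 bp and 388 and 375 bp in untreated lists 1 and 2. Treated list 2 gave the largest difference, and without it the mean was 5 bp. Set against the rest of chromosome 14, the mean difference was 20.4 bp, which is over 1.5 times as large (exact two-sided sign-flip permutation p = 0.0625, not adjusted). Peaks at the narrowest width of their list made up 11.6%, 17.5% and 6.25% of the members and 17.2%, 30.7% and 4.88% of the rest in treated lists 1, 2 and 3. In untreated lists 1 and 2 they made up 20% and 10.9% of the members and 19.3% and 24.2% of the rest.

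Members were held by another list at 16.0%, 27.7% and 56.3% in treated lists 1, 2 and 3, against 28.3%, 13.9% and 85.5% of the rest of those lists. In untreated lists 1 and 2 the values were 25% and 34.8% in the stretch and 43.6% and 33.2% in the rest. The mean difference was -8.95 points ± 16.9 (SD, n = 5; exact two-sided sign-flip permutation p = 0.375, adjusted p = 0.9), with 3 of 5 lists lower in the stretch. It was -3.96 points without treated list 3 and -15.1 points without treated list 2. An overlap counts in both of its lists, so the 5 differences are linked, while the test treats them as independent. Pair by pair, 16 of 20 directed overlaps were lower in the stretch than in the rest, and the 4 higher ones were those of treated list 2. Each pair of lists enters in both directions from the same overlaps, so the 20 are not separate comparisons. Treated list 1 and untreated list 1, which carry the same identifier, shared 5.33% and 15% of their members with each other. In the rest of their peaks it was 14.7% and 31.3%. The untreated lists shared 6.25% and 10.9% of their members with each other, against 16.2% and 16.9% of the rest.

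When only peaks with a score at or above the pooled median of 5.90 were kept, the share of members held by another list was below that of the rest in all 5 lists. It was 8.45%, 16.9% and 50% against 25.7%, 21.8% and 87.5% in treated lists 1, 2 and 3. In untreated lists 1 and 2 it was 12.2% and 18.8% against 42.6% and 42.9%. The mean difference was then -22.8 points (exact two-sided sign-flip permutation p = 0.0625, the smallest value this test allows). Here too the 5 differences are linked through shared overlaps, so this p does not stand for 5 independent lists. The same cut was applied to every list, although it is unknown whether scores are comparable between lists. It left 142, 59 and 8 treated and 49 and 16 untreated members. When each list was cut to its 528 highest scores, which kept 2 to 16 members per list, the difference was -29.4 points at the same p. Shared members were then 2 of 5, 2 of 3 and 1 of 16 in treated lists 1, 2 and 3. In untreated lists 1 and 2 they were 1 of 2 and 0 of 10. Treated list 2 differed by -4.38 points, so a single peak decides its sign. Treated list 3 is 528 peaks long and lost none. These 2 filters are alternatives to the unfiltered comparison and were not among the 9 tests adjusted together. Without a score filter the difference was -4.03 points after merging within 500 bp (exact two-sided sign-flip permutation p = 0.625). Requiring 50% overlap gave -9.78 points (exact two-sided sign-flip permutation p = 0.25). Against the rest of chromosome 14 it was -8.14 points (exact two-sided sign-flip permutation p = 0.3125). These too were not adjusted.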

How the data were processed

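p300 peaks were taken from 5 peak lists, 1 per library, of 3 treated and 2 untreated libraries of PC3 cells. The submitters' processing notes name MACS2 as a tool and hg19 as the build. Version, threshold, aligner and the input library behind each list were not given in the sources used here. The deposited score of each peak has no named scale and served to rank peaks within a list and, in 1 alternative, to filter all lists at a common score. Read depth is unknown.

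Overlap of 1 bp or more counted as sharing, and overlapping peaks were merged into regions. The genome span is the sum over chromosomes of the distance from first to last peak. Group differences used the exact two-sided permutation test over 10 divisions of the lists, and comparisons within lists an exact sign-flip permutation test, with Benjamini-Hochberg adjustment over 9 tests. The test of the share of peaks in the stretch is among them and is not reported, since peak numbers chose the stretch. The counting was tested on simulated data. The genes and regions named are HIF1A, FOS, all regions within 250 kb of either, up to 10 regions of each pattern of lists ordered by mean score percentile, the top member of each list and the fullest and emptiest windows. The region at 74.7 Mb, held by 2 lists, was added after its values were seen. The border at 74 Mb was not planned either. Members and lists were chosen with earlier results of these data known. Gene order and promoters came from RefSeq tables of GRCh38.p14, and no coordinate was converted. The planned count of peaks near transcription starts was not run. Python 3.11.15, numpy 2.4.6, pandas 2.3.3, scipy 1.17.1 and matplotlib 3.10.9 were used.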

Additional observations from a re-analysis of the deposited data

How the results depend on the processing

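Of 100 alternative values of the differences, 13 changed sign and 1, near FOS, moved from 0. Of 56 alternative counts, 35 stayed within 1.5-fold and 21 moved further. No tested difference could pass a threshold of 0.05 with 5 lists, so stability here means direction only. With scores at or above the pooled median, the group difference in score percentile was -0.833 points. Treated-only and untreated-only regions (in every list of one group and none of the other) were then 0 each, and 16 were in 2 or more lists. With each list cut to the length of the shortest by score, the difference in score percentile was -3.24 points and the width difference inside against the rest -11.6 bp. That setting left 0 regions in all lists, 0 treated-only, 0 untreated-only, 2 in 2 or more lists and 0 windows with every treated share lower. Both settings hold fewer peaks. Merging within 500 bp gave a difference in sharing of -1.03 points and 4 untreated-only regions. Group medians gave -2.15 points for sharing and -0.379 points for the HIF1A neighbourhood. Within 500 kb of FOS the difference was 0.243 points, from 1 peak. Leaving out 1 list gave differences from -0.661 to 0.943 points for the share in the stretch, -108 to 35.5 bp for width, 0.857 to 13.4 for score percentile, -8.97 to 9.17 points for sharing and -0.680 to 2.08 points near HIF1A. The counts then ran from 2 to 16 treated-only regions, 2 to 62 untreated-only regions, 25 to 47 regions in 2 or more lists, 0 to 3 windows with every treated share higher and 1 to 5 with every one lower. The replicate block, which pairs lists by number, gave -8.02 points for sharing, -0.680 points near HIF1A and 0.109 points for the share in the stretch. Whether the numbers pair the lists is not known, and only 2 are shared. Deviations of lists with the same number over 5 Mb windows of the genome correlated at 0.27 for number 1 and 0.41 for number 2. Number 1 is also a pair by identifier, and the other such pair, treated list 3 and untreated list 2, had -0.159. Median widths in the stretch were 243 and 244 bp for number 1 and 363 and 388 bp for number 2. In treated list 3 and untreated list 2 they were 233 and 388 bp. Deviations of the 2 untreated lists mirror each other, so each value recurs with opposite sign against the other untreated list. Pairing by identifier changed no direction of the mean, but the pairs differed in sign for score percentile (5.03 and -3.32 points) and for sharing (-9 and 21.5 points). Read depth is unknown, and peaks below the authors' threshold are not listed.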
